A study of Mus musculus with 6 samples.

Results

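Mitochondria fuse, divide and fold their inner membrane into cristae, and 10 genes for the proteins that do this are described here in activated CD8 T cells of PTPMT1 knockout and wild-type mice. They are the fusion GTPase genes Mfn1, Mfn2 and Opa1, the protease gene Oma1, the fission genes Dnm1l, Fis1 and Mff, and the inner-membrane scaffold genes Immt, Phb2 and Stoml2. They were taken by name from a table of 54532 genes, each matched 1 row, and all 10 were among the 12654 genes tested. RNA was sequenced from CD8 T cells of spleen and lymph nodes of PTPMT1 KO mice (KO, n = 3) and of WT mice (WT, n = 3). All cells had been stimulated for 3 days in culture with Dynabeads carrying CD3 and CD28 antibodies, which stand in for antigen and costimulation. The labels used here name no strain, age or sex of the mice, no driver of the deletion and no deleted exons. They do not say whether replicates are separate animals, so p-values cover the scatter of these 6 libraries, which may be technical in part. In bulk RNA, fewer cells of a type and less RNA per cell cannot be told apart.

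Fusion of the outer membrane is carried out by the mitofusins and that of the inner membrane by OPA1, whose long forms fuse and whose cut forms, made by the protease OMA1 under stress, do not. Fission needs the cytosolic GTPase DRP1, encoded by Dnm1l, which is recruited to the outer membrane by adaptors such as MFF and FIS1. Cristae are held by OPA1, by the MICOS complex with mitofilin (Immt) at its core, and by prohibitin rings with the stomatin-like protein encoded by Stoml2. Cardiolipin, the inner-membrane lipid to whose synthesis the phosphatase PTPMT1 belongs, binds OPA1, DRP1 and the Stoml2 protein. In T cells, effector cells are known for fragmented mitochondria and memory cells for fused networks with tight cristae.

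The 4 genes whose KO and WT libraries did not overlap in level were Opa1, Oma1, Immt and Stoml2, each higher in all KO libraries. Such a lack of overlap was seen in 27.8% of all tested genes, and in 14.5% with KO higher. When every library was scaled to an equal total, the groups overlapped for all 4 of these genes. They did not overlap under median-of-ratios scaling, which divides a library by the median ratio of its genes to their geometric means. Ratios within a library are free of such scaling. Those of each of the 4 genes to Mfn1 did not overlap between groups. Those of Oma1 to Opa1, Stoml2 to Phb2, Immt to Chchd3 and Stoml2 to Yme1l1 did. The promoters of these 4 genes are shown because their groups did not overlap as deposited. Each of the 4 has 1 start in the RefSeq table. Each sequence is the 250 bases before the RefSeq start (GRCm38.p6), at chr16:29579084-29579333 (plus strand) for Opa1, chr4:103313596-103313845 (plus strand) for Oma1, chr6:71831070-71831319 (plus strand) for Immt and chr4:43031385-43031634 (minus strand) for Stoml2. Capitals mark matches, on either strand, to GCGCA and GCGC with any 1 base between them, a site of nuclear respiratory factor 1 (NRF1), or to CCGGAAG, an ETS site of the kind bound by GABP.
Opa1: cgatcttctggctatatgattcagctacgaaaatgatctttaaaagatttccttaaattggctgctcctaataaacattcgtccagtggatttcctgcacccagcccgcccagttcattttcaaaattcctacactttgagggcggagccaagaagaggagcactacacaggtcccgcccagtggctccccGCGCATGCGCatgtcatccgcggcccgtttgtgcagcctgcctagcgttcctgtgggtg
Oma1: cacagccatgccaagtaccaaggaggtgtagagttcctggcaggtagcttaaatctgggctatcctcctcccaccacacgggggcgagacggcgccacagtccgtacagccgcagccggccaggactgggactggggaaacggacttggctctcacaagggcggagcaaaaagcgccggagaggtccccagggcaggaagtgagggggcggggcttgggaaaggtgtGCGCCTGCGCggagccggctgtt
Immt: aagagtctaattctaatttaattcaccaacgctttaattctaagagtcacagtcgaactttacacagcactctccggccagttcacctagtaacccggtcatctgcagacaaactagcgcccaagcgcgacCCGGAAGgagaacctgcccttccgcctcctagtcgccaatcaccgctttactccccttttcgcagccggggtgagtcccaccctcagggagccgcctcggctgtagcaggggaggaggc
Stoml2: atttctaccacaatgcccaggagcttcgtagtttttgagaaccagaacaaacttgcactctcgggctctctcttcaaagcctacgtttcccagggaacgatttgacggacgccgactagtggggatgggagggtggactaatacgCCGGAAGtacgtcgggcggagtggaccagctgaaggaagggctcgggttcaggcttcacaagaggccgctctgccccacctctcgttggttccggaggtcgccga

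NRF1 and GABP are transcription factors known for nuclear genes of mitochondria. The NRF1 letters stood in the promoters of 2 of the 10 genes, Opa1 and Oma1, and in 3.73% of 32807 mouse promoters of the same length. In Opa1 the match is its own reverse complement, from base -59 to -50 before the start, and in Oma1 it lies on the strand opposite the gene from -23 to -14. The ETS letters stood in 5 of the 10, namely Immt, Stoml2, Mfn1, Fis1 and Phb2, and in 6.91% of all promoters. They lie from -119 to -113 in Immt and from -105 to -99 in Stoml2. By the gene coordinates given below, the Stoml2 window and the Oma1 match lie inside their genes. The annotations thus place these starts differently. The E-box CACGTG and the letters TGATGNAA of ATF4 and C/EBP sites stood in 0 of the 10, against 6.02% and 3.45% of promoters. No 2 different motifs overlapped. All 10 genes were in the RefSeq table, and Mfn2, Dnm1l, Fis1 and Mff had more than 1 start there, each of which was searched. A gene was counted if any of its starts matched, as Fis1 did at 1 of 2. The shares of promoters are per start, a unlike unit to genes. These matches describe letters in a window and not binding.

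The target gene was checked first. Ptpmt1, the phosphatase gene, had 1.0004, 1.58 and 1.504 FPKM in KO and 3.75, 3.84 and 4.13 FPKM in WT, a log2 fold change of -1.26 (limma adjusted p = 0.0884). The transcript was thus lower in all KO libraries but present in each, and the difference missed the threshold of 0.05. FPKM are read fragments per kilobase of gene, scaled to a total for each library. That total was 0.780 to 1.10 times the library's rebuilt reads. Each library gave 14932604 to 16819913 whole reads when these were rebuilt from the FPKM, and the 10 genes had 181 to 4656 reads each per library. The CD8 T cell marker list (8 of 8 genes present, among them Cd8a, Cd8b1 and Cd3e) summed to 869 to 1596 FPKM in KO and 1319 to 1748 FPKM in WT. Of the 8, Cd8a (109 to 145 FPKM in KO and 182 to 219 FPKM in WT), Cd3e (20.4 to 31.9 in KO and 37.7 to 42.7 in WT), Cd2 (82.4 to 107.3 in KO and 123.7 to 150.5 in WT) and Cd5 (47.6 to 57.6 in KO and 58.7 to 75.4 in WT) were lower in every KO library than in any WT library, with limma adjusted p of 0.149 to 0.295. Gamma-delta T cell markers (Trdc, Tcrg-C1 and Sox13) summed to 9.33, 15.4 and 52.3 FPKM in KO and 9.01, 9.13 and 21.1 FPKM in WT, and those of CD4 and regulatory T cells to at most 5.995 FPKM in any library. B cell markers summed to 13.4 to 15.0 FPKM in KO and 18.7 to 25.0 FPKM in WT, and myeloid markers to 1.52 to 6.89 FPKM in KO and 4.24 to 6.07 FPKM in WT. NK cell markers, mostly Eomes, summed to 18.2 to 21.8 FPKM in KO and 18.01 to 26.6 FPKM in WT. Of the myeloid markers, the macrophage gene Csf1r reached 0.182 FPKM at most, while Lyz2 reached 4.92 FPKM in KO replicate 1 and Cd68 3.44 FPKM in WT replicate 3. KO replicate 3 had 0 reads of Xist and 1837 of the Y-linked Ddx3y, while the other libraries had 3513 to 8614 reads of Xist and 0 of Ddx3y. These are reads of a male in KO replicate 3 and of females in the others, so KO replicate 3 came from another animal than the other KO libraries. Sex thus differs within KO and is not balanced between the groups, and fits without KO replicate 3 hold female libraries only. The part of the marker and sex differences in the results was not tested.

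The mean level over the 6 libraries ran in the order Fis1 (65.9 FPKM), Phb2 (53.8), Stoml2 (30.5), Dnm1l (17.8), Immt (13.5), Mff (11.04), Opa1 (9.14), Oma1 (7.19), Mfn2 (6.89) and Mfn1 (4.67). For all 9 neighbouring pairs in that order, the ranges over the 6 libraries overlapped. Fis1 stood above 93.2% of all tested genes by mean level, and Mfn1 above 42.7%. The genes of cristae scaffolding and fission averaged over 10 FPKM, and those of fusion and OPA1 cleavage under 10 FPKM, a scale that is per length of gene.

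**Figure D1:**
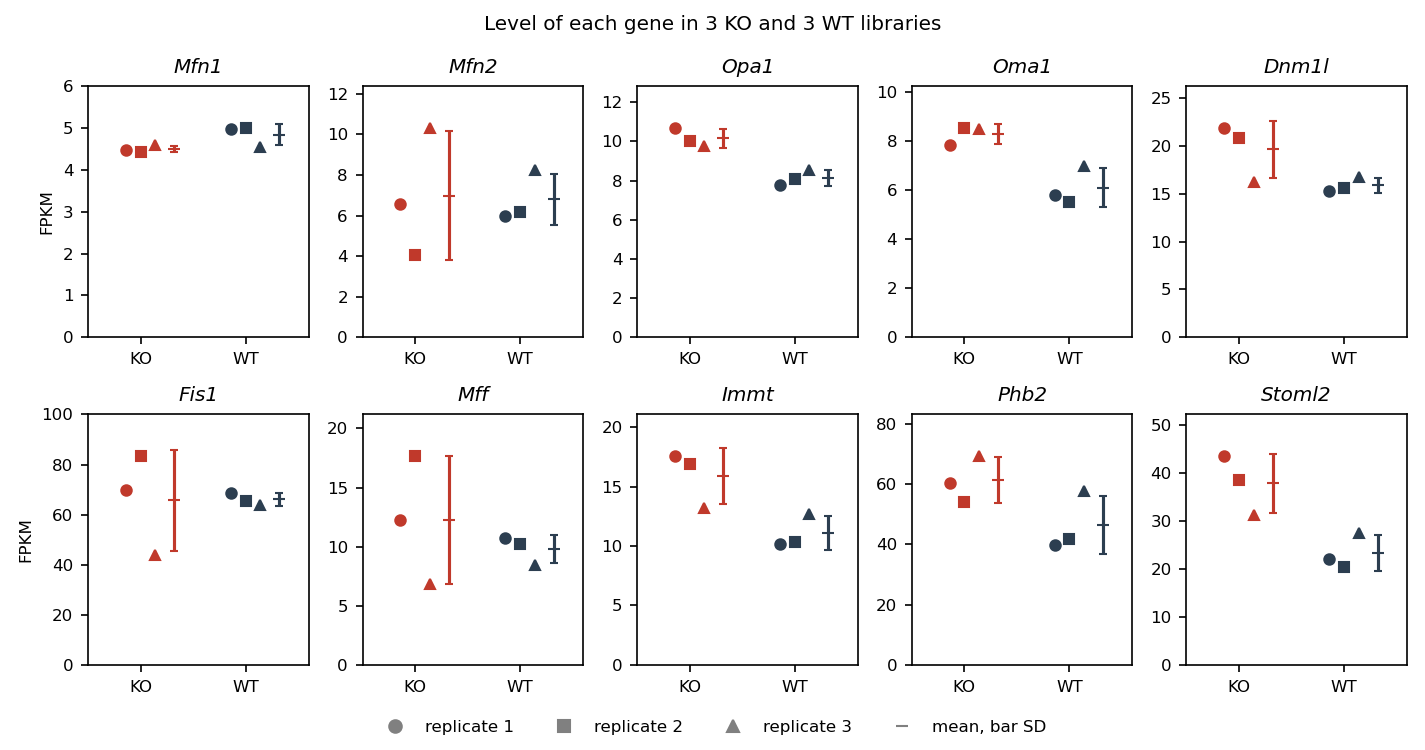
FPKM (vertical axes, each from 0) of the 10 genes in KO (red, left) and WT (dark, right) libraries, with replicates 1 to 3 as circle, square and triangle, and the mean with its SD beside them. Opa1, Oma1, Immt and Stoml2 have all 3 KO points above all 3 WT points. Of the 10 genes, Mff, Mfn2 and Fis1 have the widest KO spread, at 2.58, 2.56 and 1.91 for highest over lowest.

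Stoml2 encodes a cardiolipin-binding scaffold of the inner membrane that joins the proteases PARL and YME1L1 (ENSMUSG00000028455, mm10 chromosome 4, 43027690 to 43031710, minus strand). It had 43.5, 38.5 and 31.2 FPKM in KO and 22.0, 20.3 and 27.4 FPKM in WT. Every KO library was above every WT library, and KO replicate 3 and WT replicate 3 lay nearest to each other. The means were 37.7 ± 6.19 FPKM in KO and 23.2 ± 3.71 FPKM in WT (SD, n = 3 each), a log2 fold change of 0.69 (SE 0.195, 95% interval 0.23 to 1.15) on the log2(FPKM + 0.5) scale. Its limma adjusted p over all genes was 0.130, which missed the threshold of 0.05. Without KO replicate 3 the log2 fold change was 0.82 and the limma adjusted p 0.0401, where 13.7% of all genes were called. Leaving out each of the other libraries in turn gave a limma adjusted p of 0.104 to 0.467.

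Immt encodes mitofilin, the MICOS subunit that shapes cristae junctions (ENSMUSG00000052337, mm10 chromosome 6, 71831331 to 71877388, plus strand). Its FPKM were 17.6, 16.9 and 13.2 in KO and 10.2, 10.3 and 12.7 in WT. The groups did not overlap, but KO replicate 3 was only just above WT replicate 3. The means were 15.9 ± 2.37 FPKM in KO and 11.1 ± 1.42 FPKM in WT (SD, n = 3 each), with a log2 fold change of 0.50 (SE 0.179, limma adjusted p = 0.177). Without KO replicate 3 it was 0.63 (limma adjusted p = 0.0501).

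Phb2, which forms rings with its partner prohibitin in the inner membrane (ENSMUSG00000004264, mm10 chromosome 6, 124712336 to 124716950, plus strand), had 60.5, 54.0 and 69.4 FPKM in KO and 39.9, 41.7 and 57.5 FPKM in WT. WT replicate 3 lay above KO replicate 2, so the groups overlapped. The log2 fold change was 0.41 (SE 0.203, 95% interval -0.07 to 0.89, limma adjusted p = 0.285), and without KO replicate 3 it was 0.32. The partner gene Phb had 108.1, 133.2 and 70.1 FPKM in KO and 42.1, 36.5 and 63.4 FPKM in WT, with no overlap and a log2 fold change of 1.12 (SE 0.308, limma adjusted p = 0.126), which was 1.37 without KO replicate 3 (limma adjusted p = 0.0350). The FPKM ratio of Phb2 to Phb was 0.559, 0.406 and 0.990 in KO and 0.949, 1.14 and 0.908 in WT. KO replicates 1 and 2 were below all WT libraries in this ratio and KO replicate 3 was within their range, so the groups overlapped.

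Of the fusion genes, Opa1 encodes the inner-membrane GTPase that also narrows cristae junctions (ENSMUSG00000038084, mm10 chromosome 16, 29579334 to 29654884, plus strand). It had 10.7, 10.02 and 9.76 FPKM in KO and 7.76, 8.08 and 8.55 FPKM in WT. The groups did not overlap, and both had little spread, at 10.2 ± 0.483 FPKM in KO and 8.13 ± 0.402 FPKM in WT (SD, n = 3 each). The log2 fold change was 0.30 (SE 0.138, 95% interval -0.02 to 0.63, limma adjusted p = 0.252).

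With all libraries the groups overlapped for both mitofusins. Mfn1, an outer-membrane tether (ENSMUSG00000027668, mm10 chromosome 3, 32529465 to 32579239, plus strand), had 4.48, 4.44 and 4.59 FPKM in KO and 4.97, 5.01 and 4.55 FPKM in WT. These values lay close together, with a log2 fold change of -0.09 and a 95% interval of -0.43 to 0.24 (limma adjusted p = 0.731). Without KO replicate 3 (-0.107) or without WT replicate 3 (-0.135), Mfn1 was lower in KO with no overlap. Mfn2, which also tethers mitochondria to the endoplasmic reticulum (ENSMUSG00000029020, mm10 chromosome 4, 147873599 to 147904704, minus strand), had 6.59, 4.03 and 10.3 FPKM in KO and 5.97, 6.16 and 8.26 FPKM in WT. The KO libraries held both the highest and the lowest value, a 2.56-fold range, against 1.38-fold in WT. The FPKM ratio of Mfn2 to Mfn1 was 1.47, 0.909 and 2.25 in KO and 1.201, 1.23 and 1.82 in WT, and the groups overlapped. Its log2 fold change of -0.04 (SE 0.323, limma adjusted p = 0.957) turned to 0.28 when KO replicate 2 was left out and to 0.10 when WT replicate 3 was, and was -0.35 without KO replicate 3, so no direction can be given for Mfn2.

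Oma1, the stress-activated protease that cuts OPA1 (ENSMUSG00000035069, mm10 chromosome 4, 103313812 to 103371868, plus strand), had 7.82, 8.53 and 8.503 FPKM in KO and 5.81, 5.50 and 6.99 FPKM in WT. All KO libraries were above all WT libraries. The means were 8.28 ± 0.401 FPKM in KO and 6.10 ± 0.784 FPKM in WT (SD, n = 3 each), a log2 fold change of 0.42 (SE 0.155, limma adjusted p = 0.187). Within a library the ratio of Oma1 to its substrate Opa1 was 0.731, 0.851 and 0.871 in KO and 0.749, 0.681 and 0.817 in WT, and these ranges overlapped.

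Among the fission genes, Dnm1l, the GTPase gene for DRP1 (ENSMUSG00000022789, mm10 chromosome 16, 16312230 to 16358959, minus strand), had 21.9, 20.8 and 16.2 FPKM in KO and 15.2, 15.6 and 16.7 FPKM in WT. KO replicates 1 and 2 were above all WT libraries and KO replicate 3 was among them. The log2 fold change was 0.29 (SE 0.167, 95% interval -0.11 to 0.68, limma adjusted p = 0.354), and without KO replicate 3 it was 0.42 (limma adjusted p = 0.0801). The adaptor gene Mff (ENSMUSG00000026150, mm10 chromosome 1, 82724890 to 82752394, plus strand) had 12.2, 17.7 and 6.85 FPKM in KO and 10.7, 10.3 and 8.47 FPKM in WT. KO replicate 2 was the highest and KO replicate 3 the lowest of the 6. The log2 fold change of Mff, 0.22 (SE 0.325, limma adjusted p = 0.729), turned to -0.09 when KO replicate 2 was left out and was 0.57 without KO replicate 3.

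Fis1, the other outer-membrane adaptor (ENSMUSG00000019054, mm10 chromosome 5, 136953275 to 136966234, plus strand), had 69.9, 83.6 and 43.8 FPKM in KO and 68.7, 65.5 and 64.0 FPKM in WT. The WT libraries lay close together, and the KO libraries lay on both sides of them, as for Mff. KO over WT was -0.06 on the log2 scale (SE 0.253, limma adjusted p = 0.916), and it was 0.21 without KO replicate 3. The ratio of Fis1 to Dnm1l was 3.20, 4.02 and 2.70 in KO and 4.51, 4.19 and 3.82 in WT, where KO replicate 2 lay inside the WT range.

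**Figure D2:**
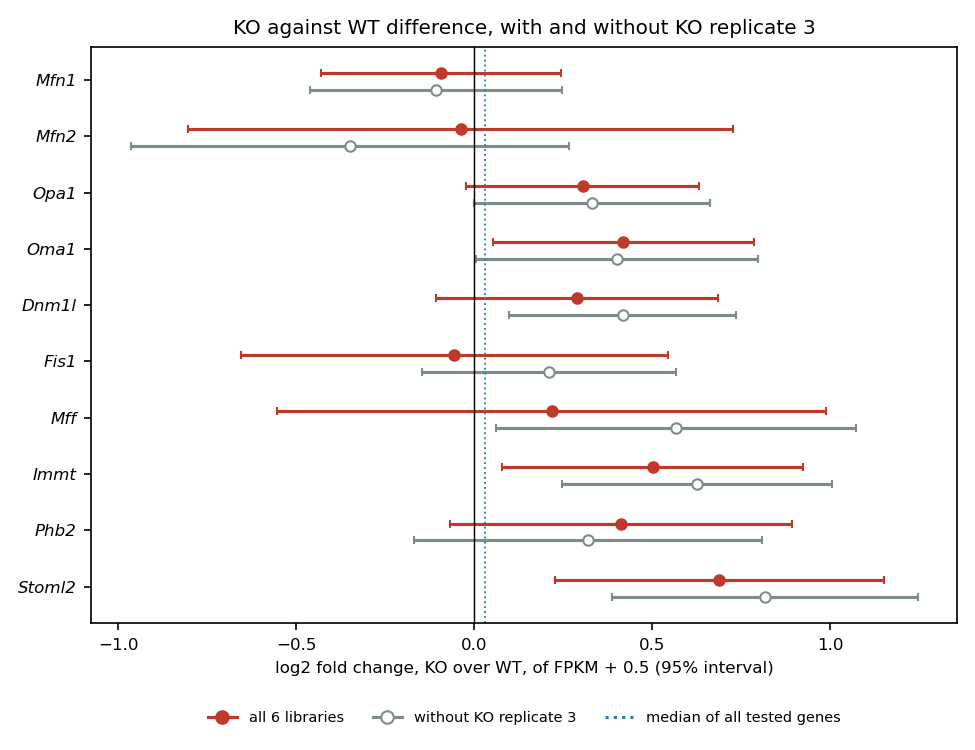
Log2 fold change of KO over WT with its 95% interval for each gene, from all 6 libraries (filled, red) and without KO replicate 3 (open, grey); the dotted line is the median of all tested genes. With all libraries the intervals of Oma1, Immt and Stoml2 lie above 0, and Mfn2, Fis1 and Mff move most when KO replicate 3 is left out.

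Over all genes tested, limma called 0 of the 10 genes at an adjusted p under 0.05, where 5 of 12654 genes (0.0395%) were called. An unadjusted p under 0.05 was reached by 3 of the 10, Oma1, Immt and Stoml2, against 21.8% of all genes, and all 3 were higher in KO, against 11.5% of all genes. The groups did not overlap for 4 of the 10, against 27.8% of all genes, all 4 higher in KO, against 14.5%. Counts of 3 and 4 among 10 genes are too small to set them apart from the rest. The median log2 fold change of the 10 was 0.30, with 7 higher and 3 lower in KO (6 and 4 with equal FPKM totals). That of all tested genes was 0.03, with 6632 of 12654 higher in KO. By role, the cristae scaffold genes were at 0.41 to 0.69, the fission genes at -0.06 to 0.29 and the fusion genes at -0.09 to 0.30. Without KO replicate 3, limma called 1 of the 10 (Stoml2) and 1733 genes in all, or 13.7%. The groups then did not overlap for 8 of the 10, of which Mfn1 was lower in KO, against 53.3% of all genes. The number of the 10 at an unadjusted p under 0.05 was then 6, against 35% of all genes. It was 1 without KO replicate 1, KO replicate 2, WT replicate 1 or WT replicate 2, where 10.6% to 18.2% of all genes passed. Without WT replicate 3 the groups did not overlap for 7 of the 10, of which Mfn1 was lower in KO, against 43.7% of all genes. Without KO replicate 2 this held for 5, against 36.3%, and without KO replicate 1, WT replicate 1 or WT replicate 2 for 4, against 32%, 33.8% and 30.6%.

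The scale of the libraries touches these values. The authors' totals behind the FPKM were 0.941, 0.780 and 1.10 times the rebuilt reads in KO replicates 1 to 3, and 0.995, 1.03 and 1.07 times in WT replicates 1 to 3. When every library was given an equal FPKM total, the tested genes had a median of -0.20 in log2 fold change, and the 10 genes one of 0.04. The distance between these medians was 0.24, against 0.27 as deposited. Of all genes with an unadjusted p under 0.05, 22.9% were then higher in KO, against 52.9% as deposited. Mff then joined the genes with a lower mean in KO, which left 6 of the 10 higher. The log2 fold changes were then 0.42 for Stoml2, 0.24 for Immt, 0.17 for Oma1, 0.14 for Phb2, 0.05 for Opa1 and 0.02 for Dnm1l, and -0.28 for Mfn2, -0.33 for Fis1 and -0.34 for Mfn1. Relative to the median of all genes, Stoml2 was at 0.62 and Immt at 0.44, against 0.66 and 0.47 as deposited. Under equal totals 0 of the 10 genes had an unadjusted p under 0.05 in limma, against 16.7% of all genes. Fis1, lower in KO, was then the 1 gene whose groups did not overlap, against 22.7% of all genes. With median-of-ratios scaling the medians were 0.02 for the tested genes and 0.29 for the 10. The groups then did not overlap for 5 of the 10, among them Mfn1, lower in KO, against 28.1% of all genes.

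**Figure D3:**
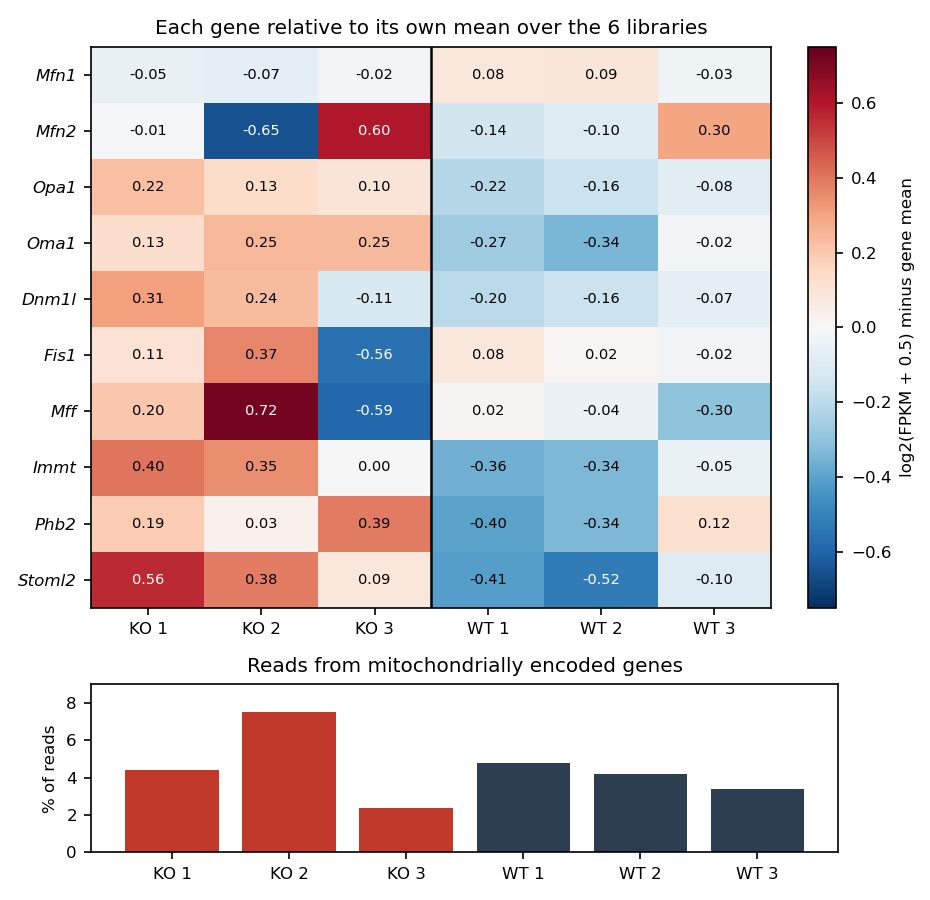
Top, log2(FPKM + 0.5) of each gene minus its own mean over the 6 libraries, with KO left of the line and WT right of it. Bottom, percent of reads from mitochondrially encoded genes in each library, 2.38% to 7.53%. Mff and Fis1 are highest in KO replicate 2 and lowest in KO replicate 3, and Mfn2 is the reverse.

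The KO libraries differed from each other for some of these genes more than the groups did. Between KO replicate 2 and KO replicate 3 the difference in log2(FPKM + 0.5) was 1.31 for Mff, 0.92 for Fis1 and -1.26 for Mfn2, while for Opa1, Oma1 and Mfn1 it was 0.04, 0.004 and -0.04. Mitochondrially encoded genes took 4.40%, 7.53% and 2.38% of reads in KO replicates 1 to 3, and 4.76%, 4.21% and 3.38% in WT replicates 1 to 3. Over the 12640 tested genes with an annotated transcript, the same difference between KO replicates 2 and 3 had a Spearman rho of -0.339 with GC share and -0.34 with transcript length. The genes share these libraries and are not independent. Some of the 10 genes went with these trends and others did not. The longest coding transcript has 2574 bases in the median tested gene. Fis1 (948 bases), Mff (2087) and Stoml2 (1874) were higher in KO replicate 2 than in KO replicate 3, and Mfn2 (4341) was lower. Dnm1l (3966) and Immt (2728), longer than the median, were also higher, each at 0.35. The long transcripts of Opa1 (6230) and Mfn1 (4562) and the short one of Oma1 (1915) hardly differed. The short transcript of Phb2 (1318) was lower, at -0.36. By GC share, Dnm1l (40.9%), Mff (46.05%) and Immt (49.08%), below the median of 49.7%, were higher in KO replicate 2 than in KO replicate 3. Opa1, Mfn1 and Oma1, also below it, hardly differed. Above it, Mfn2 (53.14%) and Phb2 (56.75%) were lower in KO replicate 2, while Fis1 (54.4%) and Stoml2 (54.11%) were higher. The part of GC share and length in these differences was not tested. Under a correction for GC share and length, chosen after the data were seen, the log2 fold changes were 0.15 for Mfn2, 0.07 for Mff and -0.09 for Fis1, and 0.71 for Stoml2.

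Other genes of mitochondrial shape were taken from lists of 42 genes, of which 40 passed the filter of a mean of 0.5 FPKM; Pld6 and Gdap1 did not. Limma called 0 of these 40, against the 0.0395% of all genes given above, and 13 had an unadjusted p under 0.05, 11 higher and 2 lower in KO, against 11.5% and 10.2% of all genes. The groups did not overlap for 12 genes that were higher and 3 that were lower in KO, against 14.5% and 13.3% of all genes. The median log2 fold change was 0.39, with 32 of 40 higher, against 6632 of 12654 tested genes. With equal FPKM totals, 28 of the 40 were higher.

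Cristae factors beside the scaffold genes were higher on average in KO for 18 of 18, against 6632 of 12654 tested genes. With equal FPKM totals it was 15 of 18, where Letm1, Opa3 and Mtx3 were lower. The median log2 fold change was 0.50, and limma adjusted p were 0.109 or more. The groups did not overlap for 5 of the 18, against 14.5% of all genes with KO higher. An unadjusted p under 0.05 in limma was reached by 6, all higher in KO, against 11.5% of all genes. Tmem11, a mitochondrial membrane protein tied to MICOS, had the smallest adjusted p, with 23.3, 28.9 and 22.8 FPKM in KO and 14.3, 14.8 and 16.8 FPKM in WT (log2 fold change 0.68, limma adjusted p = 0.109). Apoo, a cardiolipin-linked MICOS subunit, had 22.2, 35.1 and 12.6 FPKM in KO and 8.76, 9.18 and 11.7 FPKM in WT. Ghitm, an inner-membrane protein of cristae organisation, had 169.8, 279.5 and 141.8 FPKM in KO and 107.1, 88.0 and 98.2 FPKM in WT. Chchd6, a MICOS subunit that binds mitofilin, had 5.65, 4.58 and 5.04 FPKM in KO and 3.69, 2.86 and 3.90 FPKM in WT. The groups did not overlap for any of these 4. A further MICOS partner of mitofilin, Chchd3, was chosen after its values were seen. It had 81.4, 115.6 and 47.2 FPKM in KO and 65.2, 59.6 and 54.1 FPKM in WT, where KO replicate 3 was the lowest of all libraries. KO replicate 3 was also the lowest for Chchd2, Micos10, Micos13 and Apool, likewise chosen after their values were seen.

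The other fission factors went both ways, with 7 of 13 higher in KO. Dnm2, a dynamin of endocytosis that has also been linked to fission, had 26.3, 21.4 and 35.0 FPKM in KO and 41.3, 46.2 and 42.4 FPKM in WT, a log2 fold change of -0.67 (limma adjusted p = 0.150). Vps13d, a lipid-transfer protein, had 1.45, 1.18 and 2.43 FPKM in KO and 3.25, 3.40 and 2.68 FPKM in WT (log2 fold change -0.76, limma adjusted p = 0.161). Every KO library was below every WT library for both. Pgam5, a mitochondrial phosphatase that acts on DRP1, had 9.21, 8.25 and 9.60 FPKM in KO and 5.35, 5.87 and 7.22 FPKM in WT. Spire1, an actin nucleator with a mitochondrial isoform, was low, at 0.908, 1.01 and 1.498 FPKM in KO and 0.204, 0.335 and 0.638 FPKM in WT. For these the KO libraries were all above the WT libraries.

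Of the other fusion factors, Mtch2, an outer-membrane insertase, had 15.8, 14.3 and 10.1 FPKM in KO and 9.14, 8.27 and 8.81 FPKM in WT (log2 fold change 0.57, limma adjusted p = 0.168). Among the inner-membrane proteases, Parl, the rhomboid protease that the Stoml2 protein holds, had 13.5, 14.9 and 13.5 FPKM in KO and 8.67, 8.73 and 11.7 FPKM in WT, with no overlap (log2 fold change 0.52, limma adjusted p = 0.158). Yme1l1, which also cuts OPA1 and was chosen after its values were seen, had 39.2, 59.1 and 25.8 FPKM in KO and 28.9, 23.3 and 24.2 FPKM in WT, where KO replicate 3 lay among the WT libraries. Without KO replicate 3, limma called 12 of the 40 genes, 10 higher and 2 lower in KO, against 8.12% and 5.58% of all genes. Among the genes called, the log2 fold changes were then 1.47 for Apoo, 1.16 for Ghitm, 0.91 for Yme1l1, 0.75 for Mtch2, 0.74 for Tmem11, -0.85 for Dnm2 and -0.99 for Vps13d, with limma adjusted p of 0.0344 to 0.0452. With all libraries the limma adjusted p was 0.156 for Apoo, 0.134 for Ghitm and 0.279 for Yme1l1. Parl (0.54), Pgam5 (0.48), Chchd6 (0.50) and Spire1 (0.74) were not called without KO replicate 3, with limma adjusted p of 0.0937 to 0.159. Chchd3 was at 0.70 (limma adjusted p = 0.0638), against 0.36 with all libraries.

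**Figure D4:**
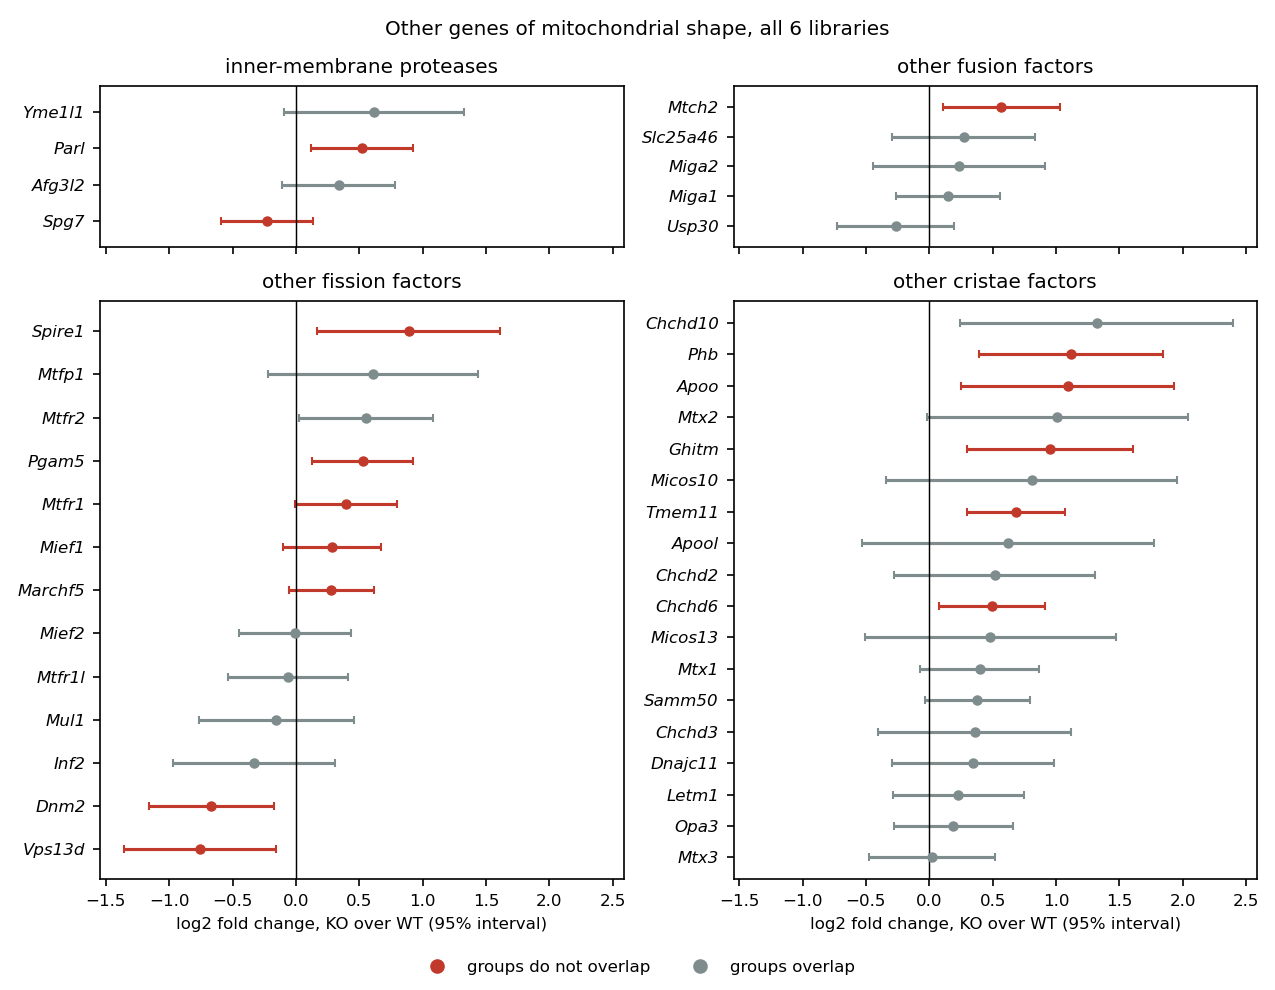
Log2 fold change of KO over WT with its 95% interval for the 40 other genes, by list; red marks genes whose KO and WT libraries do not overlap. All 18 cristae factors lie to the right of 0 (15 with equal FPKM totals), while the fission factors lie on both sides, with Dnm2 and Vps13d lowest.

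Some genes had a pattern over the 6 libraries close to that of Stoml2 or Fis1. Likeness was the root-mean-square difference between log2(FPKM + 0.5) profiles, each centred on its mean over the 6 libraries, among 6394 coding genes with a mean of at least 5 FPKM. For Stoml2, the gene of smallest p, the nearest were Sec13 (0.046), Rbmxl1 (0.053) and Bzw2 (0.060). Sec13, a coat protein of the secretory pathway and the nuclear pore, had 47.2, 46.2 and 35.3 FPKM in KO and 24.8, 22.5 and 30.2 FPKM in WT. Rbmxl1 has a near-identical parent gene, so its counts are uncertain. For Fis1, the gene of highest level, the nearest were Coro1a (0.039), Oxld1 (0.056) and Ccdc69 (0.062). Coro1a, an actin regulator of T cells, had 953.1, 1110 and 617.3 FPKM in KO and 976.7, 924.5 and 921.3 FPKM in WT.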

How the data were processed

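A kit that keeps strand (TruSeq) was used, per the labels' protocols. The authors deposited 1 table of FPKM with gene lengths in bases (a column of another kind, used only to rebuild reads). The submitters' processing notes name mm10, featureCounts 1.5.0-p3, HISAT2 2.0.5, DESeq2 and Trim Galore, without roles. For the strand setting and annotation release, the sources used here state nothing. Overlapping genes are therefore uncertain: 6 of the 10 genes overlap 9 others, none above 19 reads in a library, among them a pseudogene within Immt.

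Whole reads were rebuilt from FPKM times length (tolerance 0.05), and at least 99.994% of values per library came out whole. Identifiers were matched to GENCODE M21, 54409 with and 123 without a match, and 27 date-like names were restored. Values were tested as log2(FPKM + 0.5), which understates folds of low genes, for genes with a mean of at least 0.5 FPKM, by limma 3.58.1 in R 4.3.3 (genotype only, variance trend, 2-sided, Benjamini-Hochberg over all genes). An exact permutation of 3 against 3 samples cannot go below p = 0.1 and was not used. Genes named beyond the 10 had an unadjusted p under 0.05 without overlap, or were nearest in profile to Fis1 or Stoml2; others were chosen after their values were seen and are marked so. A further marker list is not reported here. Ratios between genes were chosen after their values were seen. Members and lists were chosen with earlier results of these data known. Figures used Python 3.11.15 and matplotlib 3.10.9.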

Additional observations from a re-analysis of the deposited data

How the results depend on the processing

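Of 110 log2 fold changes of the 10 genes under the alternatives that kept all libraries, 100 kept their direction and their side of the threshold, 6 passed it and 4 turned. Mff turned to -0.046 under equal totals, Mfn2 to 0.0623 and Fis1 to 0.0668 under sample weights, and Mfn2 to 0.15 under the GC and length correction, which was chosen after seeing the data. Leaving out 1 library in turn gave -0.35 to 0.28 for Mfn2, -0.25 to 0.21 for Fis1, -0.0869 to 0.567 for Mff and 0.58 to 0.82 for Stoml2. The numbers of the 10 genes then ran from 0 to 1 called by limma, 1 to 6 at an unadjusted p under 0.05 and 4 to 8 without overlap, with 0 to 12 of the 40 other genes and 2 to 1733 of all genes called, the highest each without KO replicate 3. Estimated sample weights, which did not converge and ran from 0.154 in KO replicate 3 to 36.4 in KO replicate 1, gave 6 of the 10 genes called (6 also at an unadjusted p), 32 of the 40 and 7200 of all. Equal totals gave 0 at an unadjusted p under 0.05 and 1 without overlap. All genes called by limma numbered 3 with a pseudocount of 1, 3 without the filter, 14 without the variance trend, 1 with voom on rebuilt reads and 8 with the GC and length correction, against 5. The replicate block gave 12, and 0 of the 10 genes. Whether replicate numbers pair the samples cannot be told from 3 libraries per group. Deviations from group means correlated at 0.132, 0.0665 and 0.331 for numbers 1 to 3. KO replicates 1 and 3 correlated best with the WT replicate of their own number, and KO replicate 2 with WT replicate 1 (0.267). Under the GC and length correction Phb2 replaced Immt among the 4 genes without overlap. The cause of these shifts was not tested.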
